A study of Mus musculus with 30 samples.

Results

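The interferon response and class I presentation set holds 40 genes, of 24601 gene symbols in the total *ME* count table and 26179 in the *RiboTag* count tables. Members were chosen by their textbook role, without a threshold on these data but with earlier results of these data known. They are 18 antiviral effectors, 4 transcription factors, 7 sensors and regulators, 7 interferon-inducible GTPases and 4 genes of class I antigen presentation. RNA was taken from the small bowel *muscularis externa* (*ME*), the muscle coat that holds the enteric nervous system, of naïve mice and of mice that had undergone intestinal manipulation (IM) 3, 24 or 72 h earlier (IM3h, IM24h, IM72h), a surgical model of post-operative ileus. Each *ME* was read in up to 2 fractions, total RNA of the lysate (*ME*) and mRNA bound to HA-tagged ribosomes and pulled down with an antibody to HA (*RiboTag*). The tables gave 29 libraries, with 3 naïve and 4 each at IM3h, IM24h and IM72h for *RiboTag*, and 3 naïve, 3 IM3h, 4 IM24h and 4 IM72h for *ME*.

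All mice carried the Rpl22tm1.1Psam allele, which puts the HA tag on a ribosomal protein wherever a Cre recombinase has acted. *RiboTag* libraries and the *ME* libraries of IM24h and IM72h came from mice with the Tg(Sox10-icre/ERT2)388Wdr transgene, a tamoxifen-inducible Cre under the *Sox10* promoter, and the labels of naïve and IM3h *ME* libraries name the Tg73.12Mvs *Gfap*-cre line instead. In the *ME* the mouse line and the time after surgery therefore cannot be told apart at IM24h and IM72h against naïve, whereas IM72h against IM24h lies within 1 line. The methods give male mice of 10 to 12 weeks for IM, tamoxifen on 3 days with surgery a week after the last dose, and tramadol and isoflurane at surgery. The study counts the replicates of these groups in animals.

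Interferons bind receptors that signal through JAK kinases to STAT transcription factors. Type I interferon leads mainly to a complex with STAT2 and IRF9 that binds the interferon-stimulated response element (ISRE), and type II interferon acts mainly through the gamma-activated site (GAS), with IRF1 acting as a second-wave factor at ISRE-like sites. Among the targets are RNA-binding and antiviral proteins, guanylate-binding and immunity-related GTPases that act on the vacuoles of intracellular pathogens, and the immunoproteasome, peptide transporter and light chain that load class I molecules. Enteric glia surround the neurons of the gut wall and respond to cytokines in inflammation.

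Promoters of the members were read first, since the set is defined by a shared response to interferon. RefSeq promoter windows of build GRCm38.p6, from 250 bases before to 50 after a transcription start, were at hand for 31 of the 40 members. The ISRE core, spelled GAAA, any 2 bases and GAAA and searched on both strands, was found in 17 of these 31 (54.8%), whereas 3.99% of all 27025 genes with a window and 3.44% of all 32851 windows held it. The GAS TTCNNNGAA, which reads the same on both strands, was found in 9 of 31 members (29%) and in 9.55% of all genes. By role the ISRE core was present in 6 of 6 GTPases with a window, 7 of 14 effectors, 2 of 3 sensors and regulators, 1 of 4 transcription factors and 1 of 4 class I genes. The GAS match of *Bst2* overlaps its ISRE core, and all these matches are descriptions of letters, not measured sites. *Zbp1*, *Usp18*, *Mx1*, *Mx2*, *Oas2*, *Dhx58*, *Iigp1*, *Rtp4* and *Parp14* had no window.

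The 150 bases before the start are shown for 5 members whose levels lead the results below, 5′ to 3′ on the strand of the gene, with motif matches in capitals (the ISRE core in the first 4, the GAS in *Irf1*). *Isg15* encodes a ubiquitin-like protein, *Ifit1* a binder of foreign RNA caps, *Gbp2* a guanylate-binding GTPase, *B2m* the class I light chain and *Irf1* a transcription factor. They lie at chr4:156200819-156200968 (minus strand), chr19:34640739-34640888 (plus), chr3:142620513-142620662 (plus), chr2:122147537-122147686 (plus) and chr11:53769864-53770013 (plus) of GRCm38, the coordinate system of mm10.
Isg15: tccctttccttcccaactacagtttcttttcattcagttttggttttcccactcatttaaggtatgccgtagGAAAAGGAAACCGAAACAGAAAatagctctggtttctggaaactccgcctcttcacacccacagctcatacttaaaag
Ifit1: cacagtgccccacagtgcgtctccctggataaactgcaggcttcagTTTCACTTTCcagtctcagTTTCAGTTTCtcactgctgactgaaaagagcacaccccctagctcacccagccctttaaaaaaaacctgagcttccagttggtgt
Gbp2: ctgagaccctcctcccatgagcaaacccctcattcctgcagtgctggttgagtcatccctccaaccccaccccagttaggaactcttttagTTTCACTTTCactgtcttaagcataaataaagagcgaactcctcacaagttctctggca
B2m: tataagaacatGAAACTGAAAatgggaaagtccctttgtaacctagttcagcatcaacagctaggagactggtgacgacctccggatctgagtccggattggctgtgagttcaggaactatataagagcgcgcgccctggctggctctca
Irf1: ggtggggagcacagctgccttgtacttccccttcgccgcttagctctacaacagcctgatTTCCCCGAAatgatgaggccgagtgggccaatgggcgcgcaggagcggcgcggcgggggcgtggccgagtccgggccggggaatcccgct
*Isg15* holds 3 overlapping cores in a row, *Ifit1* holds 2, and *Gbp2* and *B2m* hold 1 each, that of *B2m* beginning at position -139 from the start. The matches of *Ifit1* and *Gbp2* lie on the other strand and so read TTTC, any 2 bases and TTTC. *Irf1* holds a single GAS and no ISRE core.

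**Figure D1:**
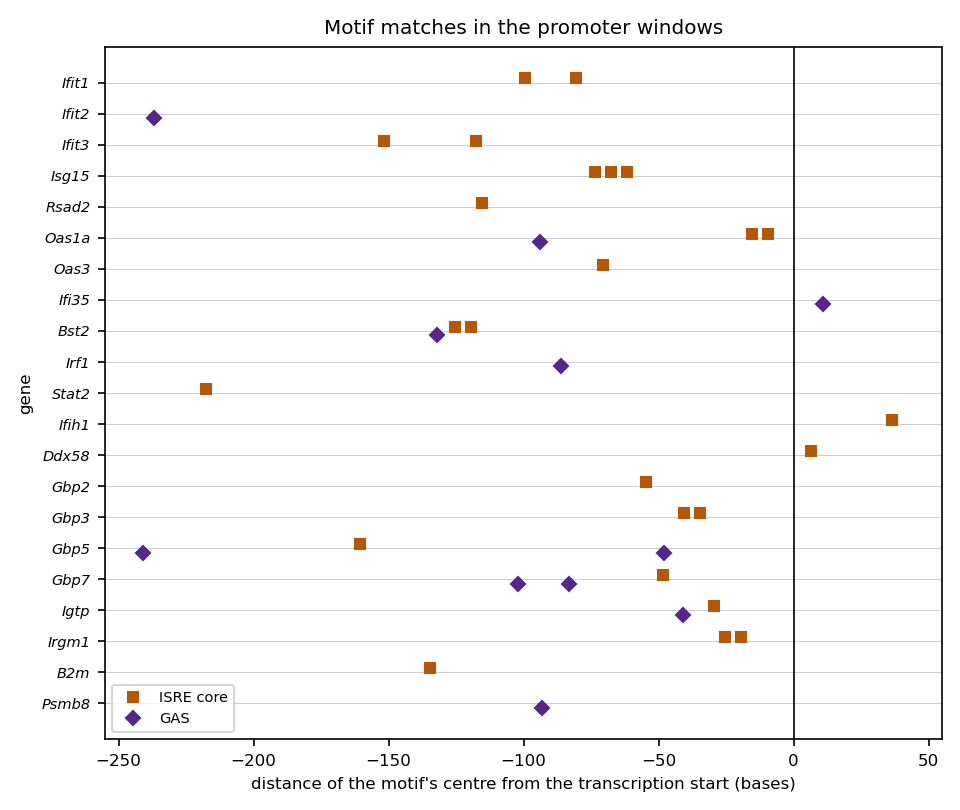
Position of each ISRE core (squares) and GAS (diamonds) match, as the distance in bases of its centre from the transcription start, for the members with a match in a promoter window. The 4 members of the guanylate-binding family, *Gbp2*, *Gbp3*, *Gbp5* and *Gbp7*, and the GTPases *Igtp* and *Irgm1* all hold an ISRE core upstream of the start.

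Libraries differed in depth and in the share of 1 ribosomal transcript. Total estimated counts were 3010306 to 7899493 in *RiboTag* and 6603170 to 12866062 in *ME* libraries. AY036118, a ribosomal RNA transcript, took 2.02% to 14% of the counts in naïve and IM3h *RiboTag* libraries, 22.2% to 59.2% at IM24h and 58% to 80.1% at IM72h. In *ME* it took 16.1% to 33.5% in naïve libraries and 1.33% to 6.5% at IM24h, and leaving the transcript out moved no *ME* count of called members against naïve at IM24h. In *RiboTag* leaving it out kept 0 members called at IM24h and gave 6 lower in place of 5 at IM72h (1395 of 11732 genes lower). At IM72h 3 counts in a *RiboTag* library were worth 1.32 to 2.88 CPM (counts scaled to library size with TMM factors), 8 to 25 of the 40 members were at 0 in a library, and 6 members were at 0 in all 4. Both counts take *Mx2*, which is not listed for *RiboTag* at IM72h, as 0. With naïve libraries scaled together, the summed level of 6 enteric glia markers was 2074 to 2511 CPM in *RiboTag* and 121 to 145 CPM in *ME*, and that of 6 smooth muscle markers was 5725 to 8670.4 CPM in *RiboTag* and 20384 to 21724 CPM in *ME*. Smooth muscle RNA thus remained in the pull-down.

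Before surgery, 7 of 14 effectors tested were more abundant in *RiboTag* mRNA than in the total RNA of the muscle coat. Of 36 members tested, 12 were higher in naïve *RiboTag* and 1 was lower at an adjusted p under 0.05 (edgeR quasi-likelihood test with Benjamini-Hochberg adjustment, 3 against 3 libraries), with 13.4% of all 14769 genes called higher and 12.7% lower. The 12 were *Oas2*, *Bst2*, *Isg15*, *Usp18*, *Ifit3*, *Xaf1*, *Oasl2*, *Zbp1*, *Psmb8*, *Irf9*, *Ifit1* and *B2m*, of which 7 are effectors. The median log2 difference of the members was 0.61, against -0.01 for all genes. Levels in this comparison come from naïve libraries of both fractions scaled together and so differ from the levels given further on, where each fraction was scaled alone.

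*Bst2*, which encodes tetherin, a membrane protein that holds budding virus at the cell, had 48.3 ± 11.7 CPM in *RiboTag* and 7.38 ± 1.62 in *ME* (SD, n = 3 each), a log2 difference of 2.72 ± 0.29 (SE, adjusted p = 4.36e-04). *Ifit3*, a partner of IFIT1, had 60 ± 8.83 CPM against 11.7 ± 3.5 (log2 difference 2.36 ± 0.28, edgeR adjusted p = 6.64e-04). *Isg15* had 27.1 ± 6.61 CPM against 4.33 ± 0.682 (2.63 ± 0.33, edgeR adjusted p = 8.83e-04). *Bst2*, *Ifit3* and *Isg15* libraries of the fractions did not overlap. *Oas2*, an oligoadenylate synthetase that activates the nuclease RNase L, showed the largest difference, 2.87 ± 0.72 on the log2 scale, at low levels of 6.61 ± 3.37 and 0.89 ± 0.248 CPM (edgeR adjusted p = 0.019, and up to 0.115 when a library was left out). *Oas2* and *Usp18* passed the low-count filter through the *RiboTag* libraries alone. *Usp18*, a protease that removes ISG15 and damps the type I receptor, differed by 2.54 ± 0.80 (edgeR adjusted p = 0.0454).

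*Gbp2* went the other way, with 31.9 ± 5.55 CPM in *RiboTag* and 53.6 ± 9.25 in *ME* (log2 difference -0.75 ± 0.22, edgeR adjusted p = 0.0344). Class I genes lay on the side of *RiboTag*, with *Psmb8*, an immunoproteasome subunit, at 62.4 ± 32.7 CPM against 20.7 ± 1.97 and *B2m* at 1695 ± 111 CPM against 1017 ± 33.2 (log2 difference 0.74 ± 0.15, edgeR adjusted p = 0.00793). *Tap1*, a subunit of the peptide transporter, had 25.2 ± 3.39 CPM against 15.7 ± 1.02 and missed the threshold (edgeR adjusted p = 0.0705). Of 16 other class I genes on a wider list 15 were tested, 5 were higher and none was lower (13.4% and 12.7% of all genes), among them *H2-Q4* (2.54 ± 0.35), *H2-D1* (1.71 ± 0.24) and *H2-Q7* (1.16 ± 0.37). None of the 6 interferon receptor genes differed past the threshold (edgeR, 1 at an unadjusted p under 0.05).

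Scaling moved these counts. With library totals in place of TMM the median of all genes was 0.73 and 24 members were higher and 0 lower (5182 and 458 of all genes), with the 3 genes *Actb*, *Hsp90ab1* and *Rplp1* as the reference it was 0.08 with 9 higher and 0 lower (1564 and 872), and relative to all genes the members' median was 0.61 to 0.63 higher under either and under TMM. Without *ME* naïve library 1 only 6 members were higher (890 of 15811 genes), and without library 2 or library 3 7 were (1103 of 15884 and 927 of 15803). The Cre lines of the 2 naïve groups differ, which cannot be told apart from the fraction.

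**Figure D2:**
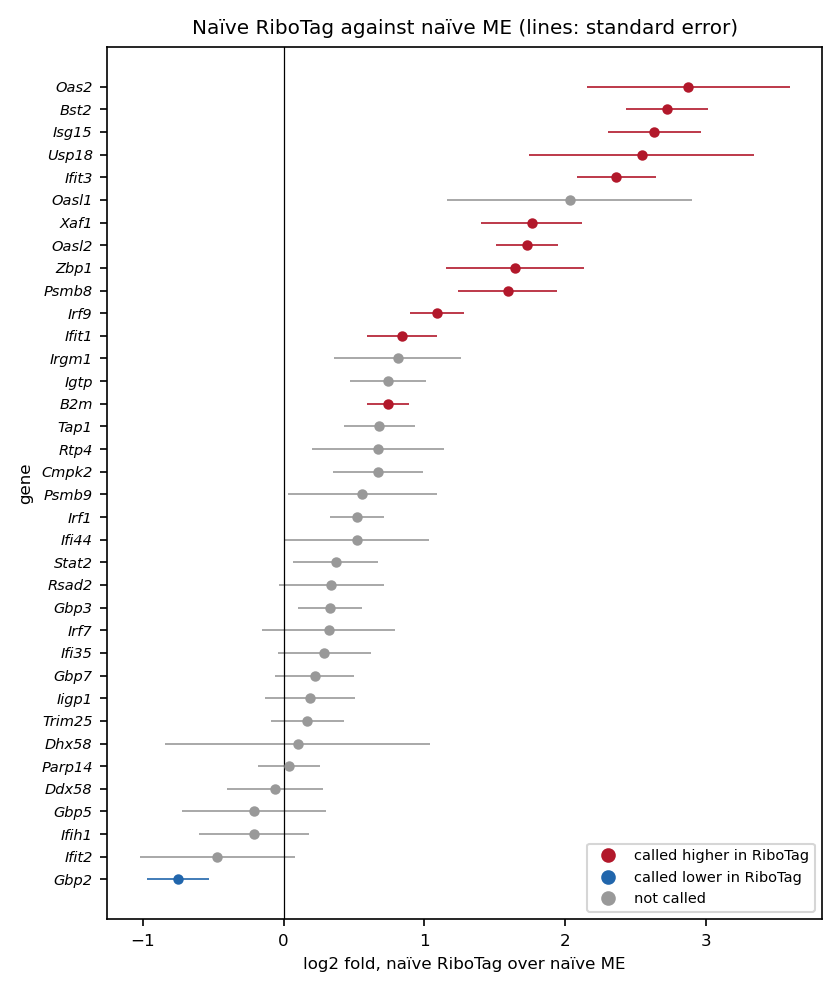
Log2 difference of naïve *RiboTag* over naïve *ME* for the 36 members tested, with lines for the standard error, coloured by call. *Oas2*, *Bst2* and *Isg15* sit at the top, between 2.63 and 2.87, and *Gbp2* at the bottom at -0.75.

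At IM3h *Gbp2*, *Gbp5*, *Irf1*, *Zbp1*, *Stat2*, *Trim25* and *Tap1* rose in both fractions. In *RiboTag* 10 of 38 members tested were higher and 0 lower (edgeR, 4 IM3h against 3 naïve libraries), with 8.86% of all 16053 genes called higher and 4.44% lower. In *ME* 15 of 36 were higher and 0 lower (3 against 3), with 19.3% of 15333 genes called higher and 13.4% lower. The members' median log2 change was 0.64 in *RiboTag* and 0.62 in *ME*, and that of all genes -0.04 and 0.00. Without *RiboTag* IM3h library 2 the members' median there was 0.38 and without library 1 0.45, against -0.07 for all genes in both. These 7 members called in both fractions are 70% of the *RiboTag* list and 46.7% of the *ME* list. At the study's own threshold, an unadjusted p under 0.05 and more than 2-fold, 12 members were higher and 1 lower in *RiboTag* (11.8% and 8.86% of all genes) and 10 were higher and 0 lower in *ME* (11.3% and 7.14%).

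Among the GTPases, *Gbp2* rose most in both fractions. In *RiboTag* *Gbp2* stood at 24.4, 27.6 and 19.4 CPM in naïve libraries and at 196, 234, 191 and 244 CPM at IM3h. In *ME* *Gbp2* stood at 47, 45.8 and 60.7 CPM in naïve libraries and at 391, 492 and 413 CPM at IM3h. Every IM3h library was above every naïve one, and the log2 changes of *Gbp2*, 3.24 ± 0.26 (edgeR adjusted p = 2.57e-05) and 3.12 ± 0.15 (adjusted p = 4.75e-07), did not differ past the threshold (difference 0.21 ± 0.27, edgeR adjusted p = 0.814). *Gbp5*, which promotes inflammasome assembly, rose by 2.21 ± 0.47 in *RiboTag* and 3.03 ± 0.17 in *ME*. *Gbp3* rose in *RiboTag* from 26.7 ± 4.57 (n = 3) to 73 ± 14.9 CPM (n = 4; log2 change 1.51 ± 0.27, edgeR adjusted p = 0.00387), while in *ME* it had 27.3 ± 4.5 and 29.2 ± 5.21 CPM (0.16 ± 0.18, edgeR adjusted p = 0.534). The difference between fractions for *Gbp3* was past the threshold (1.45 ± 0.33, edgeR adjusted p = 0.0369) with 0.959% of 17617 genes called in that direction, and the adjusted p reached 0.133 when a library was left out. At naïve and IM3h the fractions also differ in mouse line, so that in all IM3h differences between fractions the line and the fraction cannot be told apart.

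*Igtp* and *Irgm1*, immunity-related GTPases, rose in *ME*. *Igtp* went from 27, 26.3 and 32.2 CPM to 74.7, 88.8 and 85.9 CPM in *ME* (log2 change 1.59 ± 0.13, edgeR adjusted p = 1.36e-05) and from 26.6, 52.2 and 33.2 CPM to 81.8, 70.3, 35.5 and 24.2 CPM in *RiboTag* (0.56 ± 0.41, edgeR adjusted p = 0.443). The *RiboTag* libraries overlapped, and the difference between fractions for *Igtp* missed the threshold (edgeR adjusted p = 0.416). *Irgm1* rose by 1.81 ± 0.28 and *Gbp7* by 0.93 ± 0.12 in *ME*.

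Among the transcription factors, *Irf1* was at 60.5, 41.3 and 52.9 CPM in naïve *RiboTag* and at 128, 139.5, 127 and 143 CPM at IM3h (log2 change 1.44 ± 0.24, edgeR adjusted p = 0.00218). In *ME* *Irf1* was at 45.2, 48.2 and 45.3 CPM before and 174, 339 and 247 CPM at IM3h (5.65-fold higher, edgeR adjusted p = 1.45e-05). Neither pair of groups overlapped. *Stat2* went from 11.7, 9.26 and 10.4 CPM to 26.2, 24.4, 18.3 and 26.1 CPM in *RiboTag* (1.24 ± 0.33, edgeR adjusted p = 0.0296) and from 9.91, 9.9 and 11.3 CPM to 18.5, 22.7 and 22.1 CPM in *ME* (1.07 ± 0.17, edgeR adjusted p = 0.00115). *Irf9*, the DNA-binding partner of the STATs, rose by 1.30 ± 0.15 in *ME*, and *Irf7*, the factor that amplifies type I interferon, was not called in either fraction (-0.31 ± 0.71 in *RiboTag*, 0.22 ± 0.33 in *ME*).

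Sensors and regulators were called higher in 3 of 7 cases in each fraction, where 8.86% of all genes were in *RiboTag* and 19.3% in *ME*. *Zbp1*, a sensor of Z-form nucleic acid, went from 9.28, 8.58 and 4.74 CPM to 39.7, 47.7, 36.5 and 35.4 CPM in *RiboTag* (2.46 ± 0.35, edgeR adjusted p = 9.19e-04) and from 3.38, 3.66 and 2.3 CPM to 10.7, 6.94 and 6.65 CPM in *ME* (1.45 ± 0.34, edgeR adjusted p = 0.00861). *Ifih1*, which encodes the RNA sensor MDA5, rose by 1.87 ± 0.41 and *Trim25*, a ubiquitin ligase that activates RIG-I, by 1.58 ± 0.34 in *RiboTag*. *Ddx58*, the gene of RIG-I itself, had 11.4, 27.4 and 18.5 CPM before and 18.7, 15.5, 19.7 and 19.3 CPM at IM3h in *RiboTag* (-0.01 ± 0.36), with overlapping libraries. *Usp18* overlapped too, at 7.12, 3.16 and 1.78 CPM before and 0.0773, 4.78, 2.56 and 0 CPM at IM3h.

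Of the effectors 1 of 16 tested was called higher in *RiboTag*, near the 8.86% of all genes, and 1 of 14 in *ME*, where 19.3% of all genes were. Roles were not tested against each other. *Ifit2*, a pro-apoptotic member of the IFIT family, rose in *RiboTag* by 2.25 ± 0.52 (edgeR adjusted p = 0.0139). *Isg15* rose in *ME* from 4.35, 3.44 and 4.6 CPM to 15.2, 12.5 and 10.6 CPM (1.67 ± 0.26, edgeR adjusted p = 8.01e-04). In *RiboTag* *Isg15* had 14.6, 21.7 and 24.5 CPM before and 57.2, 51.4, 15.5 and 16.6 CPM at IM3h, with 2 libraries far above naïve and 2 within its range. *Ifit1* showed the same split, with 49.6 and 58.5 CPM in the first 2 IM3h libraries and 19.7 and 18.4 in the others, all above the naïve 17, 17.4 and 15.9 CPM (log2 change 1.18 ± 0.43, edgeR adjusted p = 0.0948). *Ifit3* had 51.7, 41.9 and 40.5 CPM before and 61.6, 94.4, 53.7 and 101 CPM at IM3h (0.85 ± 0.29, edgeR adjusted p = 0.0729). *Oas2* had 6.86, 5.76 and 2.13 CPM before and 2.71, 2.58, 2.79 and 4.77 CPM at IM3h, with overlap.

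Between fractions at IM3h, 4 members had a higher and 3 a lower change in *RiboTag* at the study's threshold (5.99% and 5.18% of all genes).

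Class I genes parted at IM3h. *Tap1* rose in *RiboTag* from 17.8, 21.7 and 16.8 CPM to 77, 48.4, 51.9 and 44.5 CPM (1.62 ± 0.29, edgeR adjusted p = 0.00377) and in *ME* from 15.7, 15.5 and 13.7 CPM to 24.4, 32.3 and 20.4 CPM (0.83 ± 0.19, edgeR adjusted p = 0.00846). *B2m* rose in *ME*, from 954, 965 and 996 CPM to 1586, 1666 and 1324 CPM (0.70 ± 0.12, edgeR adjusted p = 0.00164). In *RiboTag* *B2m* had 1318, 1178 and 1297 CPM before and 650.2, 899, 986 and 818 CPM at IM3h, all IM3h libraries lying below naïve (-0.53 ± 0.24, edgeR adjusted p = 0.169). The difference between fractions for *B2m* was past the threshold (-1.15 ± 0.26, edgeR adjusted p = 0.0357, with 0.698% of all genes called in that direction), and the adjusted p reached 0.122 when a library was left out. *Psmb8* was higher in *ME* (0.70 ± 0.19, edgeR adjusted p = 0.0182) and had 73.1, 27.1 and 39 CPM before and 32.5, 29.3, 42.3 and 66 CPM at IM3h in *RiboTag*, with overlap. Of the wider class I list, 2 of 15 tested rose in *RiboTag* (8.86% of all genes), the heavy chain genes *H2-K1* (1.59 ± 0.31) and *H2-Q4* (1.14 ± 0.30), and 11 of 16 in *ME* (19.3%), led by the transactivator *Nlrc5* (2.87 ± 0.43), *Tapbpl* (1.48 ± 0.18) and *H2-Q4* (1.38 ± 0.30). *Nlrc5* had 3.52 ± 1.13 CPM (n = 3) before and 10.5 ± 4.70 CPM (n = 4) at IM3h in *RiboTag* (1.64 ± 0.59, edgeR adjusted p = 0.0906).

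Of the pathway upstream, none of 10 interferon genes could be tested. The count tables used here list *Ifnk* and *Ifnl3* in *RiboTag* alone, where neither passed the filter on low counts, and do not list the other 8. None of the 6 receptor genes was called in *RiboTag* at IM3h, and in *ME* *Ifngr2* (0.96 ± 0.17), *Ifngr1* (0.57 ± 0.18) and *Ifnar2* (0.47 ± 0.12) rose (19.3% of all genes). Of 15 signalling and feedback genes tested in *RiboTag* 4 rose (8.86% of all genes), led by the cytokine feedback inhibitor *Socs3* (3.11 ± 0.46), the kinase *Tbk1* (1.60 ± 0.43) and *Jak1* (1.34 ± 0.26), and of 16 in *ME* 10 rose (19.3%), led by *Socs3* (5.02 ± 0.29), *Tmem173*, the gene of STING (2.62 ± 0.21), and *Cgas* (2.19 ± 0.33). Among 31 further interferon-stimulated genes, *Parp9* rose (1.59 ± 0.41) and *Uba7* fell (-1.77 ± 0.40) in *RiboTag* among 28 tested (8.86% and 4.44% of all genes), and 11 rose and 1 fell in *ME* among 29 tested (19.3% and 13.4%), led by the chemokines *Cxcl10* (4.35 ± 0.22) and *Cxcl9* (3.02 ± 0.51).

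The *RiboTag* count at IM3h moved with the fit and the scaling used. In a fit together with IM24h and IM72h libraries, 0 members were called (22 of 17930 genes higher and 12 lower). That fit shared the estimate of the spread, the scaling and the low-count filter with those libraries, and these changes were not tested apart. With the 3 reference genes only *Gbp2* was called (242 genes higher and 306 lower). With library totals 9 were higher and 1 lower (976 and 931 genes). Leaving out 1 library left 8 to 12 called. The members' median stood 0.68 above that of all genes under TMM and 0.69 under either other scaling, whose medians over all genes were -0.24 and -0.45. In *ME*, library totals gave 12 higher and 2 lower (1741 and 3391 genes) and the 3 reference genes 11 and 3 (1578 and 5364). Summed levels of leukocyte markers at IM3h were 61.8 to 126 CPM for 7 macrophage markers in *RiboTag* (83 to 166 in naïve) and 141 to 158 CPM in *ME* (177 to 186). For 6 neutrophil markers they were 3.63 to 13.3 CPM in *RiboTag* (1.07 to 5.65 in naïve), with *Ly6g* at 0 in both groups, and 20.6 to 31.4 CPM in *ME* (3.87 to 6.78). For 5 monocyte markers they were 25 to 46.8 CPM in *RiboTag* (22.7 to 31.1), with *Chil3* at 0 in both groups and 1 of 3 tested called higher, and 49.4 to 104 CPM in *ME* (34.2 to 40.7), with 4 of 4 tested called higher. Fibroblast markers summed to 155 to 219.9 CPM in *RiboTag* (389 to 479.9) with 2 of 4 lower, and to 781 to 870.5 CPM in *ME* (1538 to 1651) with 3 of 4 lower. Mesothelial markers summed to 6.97 to 68.2 CPM in *RiboTag* (84.3 to 239) with 3 of 4 lower, and to 1.77 to 11.7 CPM in *ME* (86.7 to 126) with 4 of 4 lower. Markers of interstitial cells of Cajal summed to 27.8 to 55.8 CPM in *RiboTag* (87.3 to 125) with 1 of 3 lower, and to 169.6 to 186 CPM in *ME* (232 to 248) with 2 of 3 lower. Smooth muscle markers summed to 1827 to 4705 CPM in *RiboTag* (4289 to 6515) with 2 of 6 lower, and to 14821 to 17530.3 CPM in *ME* (19497 to 20980.3) with 1 of 6 lower. In *ME* dendritic cell markers summed to 12.1 to 23.2 CPM (9.07 to 9.81) with 1 of 2 tested higher and endothelial markers to 38.5 to 50.3 CPM (29.3 to 33.5) with 1 of 5 higher. Their part in the members' changes was not tested, and in such bulk samples more cells of a type and more RNA per cell cannot be told apart.

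**Figure D3:**
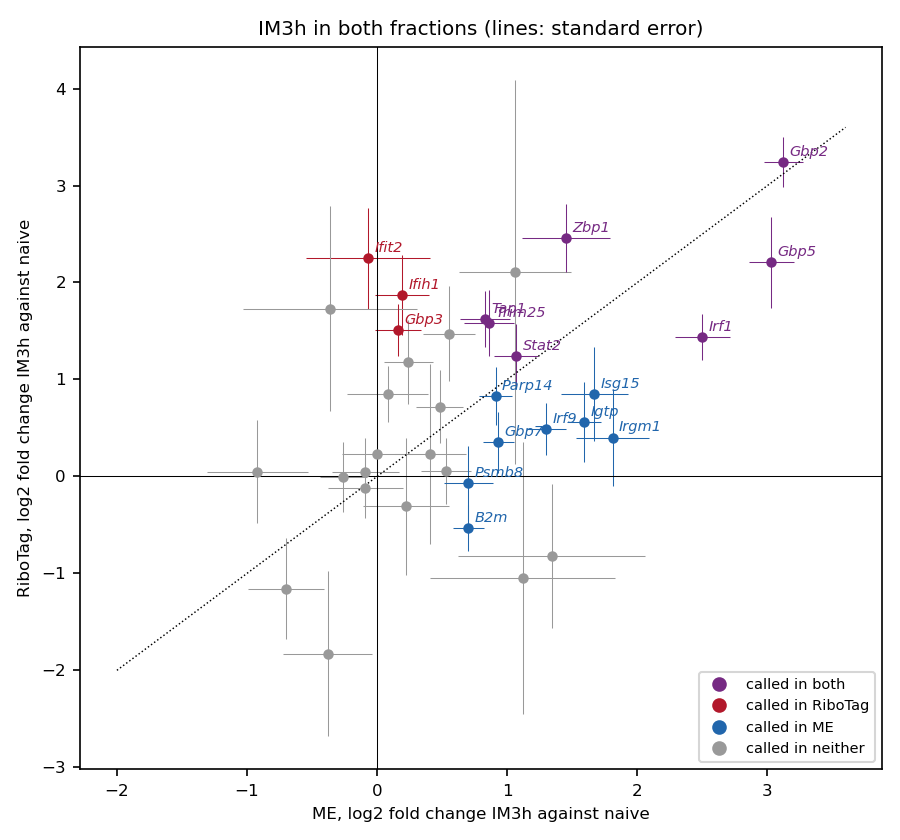
Log2 change at IM3h against naïve in *ME* (horizontal axis) and *RiboTag* (vertical axis) for the members tested in both, with lines for standard errors and a dotted line of equal change. *Gbp2* lies at 3.12 and 3.24, *Ifit2*, *Ifih1* and *Gbp3* were called in *RiboTag* and not in *ME*, and *B2m* lies at 0.70 and -0.53.

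At IM24h the *RiboTag* members were near or below naïve, and in *ME* 4 of 17 effectors tested were higher, where 15.6% of all genes were. In *RiboTag* 0 of 36 members tested, 7 of which passed the low-count filter through naïve libraries alone, were called in either direction by edgeR, where 0.366% of all 15304 genes were called higher and 0.131% lower. At an unadjusted p under 0.05 there were 4, all lower and by over 2-fold (6.62% of all genes passed that rule as higher and 5.85% as lower), DESeq2 called 3 lower (*B2m*, *Irf7* and *Oasl1*) and 366 of the 15304 genes, and 31 of 36 log2 changes were below 0, with a median of -0.61 against -0.11 for all genes. Library totals, the 3 reference genes and no filter gave 0 as well, as did leaving out together libraries 2 and 3, in which AY036118 took 59.2% and 58.1% of the counts, and the median was then -0.48 against -0.05. *Irf7* had 0 counts in all 4 IM24h libraries and 4.57, 8.58 and 4.62 CPM in naïve ones, at least 6.76-fold lower against a limit of 3 counts per library, without a call in *RiboTag* alone (edgeR adjusted p = 0.145). Of the DESeq2 calls, *Irf7* and *Oasl1* are among the 7 that passed the filter through naïve libraries alone. Both reached its level in no IM24h library and so had to lie lower there. Enteric glia markers summed to 776 to 923 CPM at IM24h (1558 to 1881 in naïve), smooth muscle markers to 1384 to 3968 CPM (4289 to 6515), macrophage markers to 151 to 271 CPM (83 to 166) and monocyte markers to 47 to 113 CPM (22.7 to 31.1). Fibroblast markers summed to 141 to 340.4 CPM (389 to 479.9), those of interstitial cells of Cajal to 22.5 to 75.9 CPM (87.3 to 125) and those of B and plasma cells to 0 to 12.3 CPM (22.5 to 49.4). The part of these markers in the members' lower levels was not tested.

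Against IM3h, *RiboTag* members at IM24h had a median log2 change of -1.50, where all genes had -0.10. Of the 36 tested, 18 passed the low-count filter through the IM3h libraries alone, which favours members that are higher there. Among these 18 are *Gbp5*, *Ifit2*, *Stat2*, *Tap1* and *Zbp1*, which are named below as called lower by DESeq2. None of 36 was called by edgeR (0.939% of 14169 genes were called higher and 0.903% lower), 16 were lower at an unadjusted p under 0.05 and by over 2-fold and 0 higher (7.09% and 6.82% of all genes), and DESeq2 called 8 lower (*Gbp5*, *Gbp7*, *Ifit2*, *Irf1*, *Stat2*, *Tap1*, *Trim25* and *Zbp1*) and 516 of the 14169 genes. Without IM24h libraries 2 and 3 edgeR called 3 lower (*Gbp2*, *Gbp7* and *Zbp1*) and 184 of 16671 genes. *Irf1* had 25.7, 49.9, 55.4 and 68 CPM at IM24h, all below the IM3h libraries and around the naïve ones (log2 change against IM3h -1.37 ± 0.36, edgeR adjusted p = 0.0694). *Gbp2* had 29.7, 118, 0 and 36.7 CPM, *Tap1* 18.1, 14.3, 3.1 and 24.6 CPM, and *Stat2* 6.17, 0, 0.887 and 5.54 CPM, each below all IM3h libraries. *Igtp* had 18.8, 20.4, 0 and 5.54 CPM and lay below the naïve libraries as well. *B2m* had 649.7, 389.9, 271 and 654 CPM, all below naïve (log2 change -1.33 ± 0.39, edgeR adjusted p = 0.150).

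In *ME* at IM24h 10 of 39 members tested were higher and 3 lower (edgeR, 4 against 3 libraries), with 15.6% of 16328 genes called higher and 13.4% lower, and the median was 0.47 against 0.02. *Oas2* had the largest log2 change, from 1.09, 0.861 and 0.605 CPM to 4.9, 5.7, 8.74 and 2.87 CPM (log2 change 2.68 ± 0.57, edgeR adjusted p = 0.00610). It passed the low-count filter through the IM24h libraries alone, with 9, 4 and 5 counts in naïve ones, as did 4 members that were not called. *Bst2* went from 5.68, 8.83 and 6.66 CPM to 45.7, 44.6, 45.3 and 37.3 CPM (2.63 ± 0.21, edgeR adjusted p = 6.09e-05). These groups did not overlap. *Zbp1* (1.65 ± 0.37), *Rtp4* (1.45 ± 0.24), *Irf1* (1.28 ± 0.20), *Isg15* (1.25 ± 0.33), *Irf9* (1.06 ± 0.26) and *Stat2* (1.04 ± 0.22) rose as well, and *Gbp3* (-0.86 ± 0.20), *Gbp7* (-0.67 ± 0.17) and *Parp14* (-0.63 ± 0.19; 0.02 with library totals) fell.

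The change of *Bst2* differed between fractions at IM24h, with *RiboTag* libraries at 44.7, 35.1 and 28.1 CPM before and 23.9, 20.4, 19.1 and 26.5 CPM at IM24h (difference -3.24 ± 0.53, edgeR adjusted p = 0.0134, with 0.263% of 17508 genes called in that direction). At the study's threshold 11 members had a lower change in *RiboTag* and 0 a higher one (7.22% and 5.85% of all genes). The change of *Irf7* differed too (edgeR adjusted p = 0.0386), with *ME* at 6.53, 7.32 and 4.48 CPM before and 5.93, 6.6, 7.47 and 6.77 CPM at IM24h. In *RiboTag* *Irf7* was at 0 counts in every IM24h library and passed the low-count filter through naïve libraries alone, so that its difference has no measured size. The call of *Bst2* was lost without any 1 of the *ME* naïve libraries (adjusted p up to 0.0842), and that of *Irf7* without any 1 naïve or *ME* IM24h library (up to 0.165). Of the receptor genes 5 of 6 rose in *ME* (15.6% of all genes), *Il10rb* (1.71 ± 0.25), *Ifngr1* (1.34 ± 0.19), *Ifnar1* (1.32 ± 0.26), *Ifngr2* (1.12 ± 0.22) and *Ifnar2* (0.65 ± 0.14). None of them was called in *RiboTag*.

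Calls in *ME* at IM24h depended on the scaling. Library totals, which put the median of all genes at 0.66, gave 22 higher and 0 lower members (6281 and 720 of all genes), and the 3 reference genes, with a median of -0.35, gave 3 higher and 2 lower (756 and 1861). Relative to all genes the members' median was 0.45 under TMM and 0.46 under both. Without *ME* naïve library 3 only 5 members were higher (1522 of 17294 genes), and leaving out any *ME* naïve library left 1 lower. Macrophage markers summed to 382 to 552 CPM (177 to 186 in naïve) with 5 of 7 called higher, monocyte markers to 239 to 304 CPM (34.2 to 40.7) with 4 of 5 higher, and neutrophil markers to 53.2 to 209 CPM (3.87 to 6.78) with 4 of 4 tested higher. Smooth muscle markers summed to 3108 to 9397 CPM (19497 to 20980.3 in naïve) with 4 of 6 called lower. Endothelial markers summed to 47.5 to 69.6 CPM (29.3 to 33.5) with 2 of 5 higher, dendritic cell markers to 15.4 to 27.3 CPM (9.07 to 9.81) with 1 of 2 tested higher, mesothelial markers to 6.5 to 73.8 CPM (86.7 to 126) with 1 of 4 lower and epithelial markers to 42.6 to 123 CPM (97.9 to 263) with 2 of 5 lower. The part of these markers was not tested.

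At IM72h the *ME* showed a broad rise of effectors and class I genes. Of 40 members 24 were higher and 5 lower (edgeR, 4 against 3 libraries), with 29.3% of 16592 genes called higher and 28.3% lower, and the members' median was 1.34 against 0.02. Of the 40, 7 passed the low-count filter through the IM72h libraries alone, which favours members that are higher there, among them 5 of the 24 called (*Oas2*, *Oas3*, *Mx1*, *Dhx58* and *Usp18*). By role the higher members were 11 of 18 effectors (3 of these 5 included), 4 of 4 transcription factors, 4 of 7 sensors and regulators, 1 of 7 GTPases and 4 of 4 class I genes. At the study's threshold 23 were higher and 1 lower (17.2% and 15.6% of all genes).

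*Oas2* reached 21.9, 13.7, 12.8 and 13.7 CPM (log2 change 4.14 ± 0.33, edgeR adjusted p = 3.14e-06). *Isg15* reached 51.7, 26.8, 39.6 and 31.7 CPM (3.12 ± 0.26, edgeR adjusted p = 3.97e-06). Both lay above all naïve, IM3h and IM24h *ME* libraries. *Mx1*, a GTPase that traps viral nucleocapsids (3.07 ± 0.64), *Oas3* (2.94 ± 0.75), *Ifi44* (2.45 ± 0.36), *Rtp4* (2.21 ± 0.26) and *Bst2* (2.13 ± 0.28) rose as well, *Mx1* from 0, 2 and 6 counts and *Oas3* from 10, 0 and 0 counts in naïve libraries. *Ifit1* had 51.7, 26.5, 35.7 and 29.2 CPM against 12.5, 12.1 and 11.5 CPM (1.54 ± 0.23, edgeR adjusted p = 1.95e-04). *Ifit3* had 22.3, 12.2, 15.3 and 15.1 CPM and overlapped the naïve 7.37, 12.9 and 13.3 CPM.

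The transcription factors all rose. *Irf9* rose by 1.99 ± 0.18, *Irf1* by 1.58 ± 0.18 to 155, 145, 168 and 97.8 CPM, *Stat2* by 1.55 ± 0.18 to 38.6, 26.6, 26.1 and 33 CPM, and *Irf7* by 1.06 ± 0.26 to 14.1, 8.73, 11.6 and 16.6 CPM. None of these groups overlapped naïve. *Usp18* rose by 1.92 ± 0.42 to 3.61, 2.18, 3.62 and 4.42 CPM from 1.33, 0.646 and 0.605 CPM, whereas *Ddx58* had 39, 29.9, 28.3 and 35.5 CPM and overlapped the naïve 24.5, 31.9 and 20.5 CPM. *Dhx58*, the gene of LGP2, rose by 2.08 ± 0.29.

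Class I genes rose together. *Tap1* went to 119, 74.7, 89.4 and 52.7 CPM (2.46 ± 0.25, edgeR adjusted p = 1.71e-05), *Psmb8* to 64.7, 64.1, 72.2 and 49.1 CPM from 17.6, 20.7 and 20.9 CPM (1.63 ± 0.15, edgeR adjusted p = 9.61e-06), and *B2m* to 2764, 2585, 2999 and 2408 CPM (1.44 ± 0.12, edgeR adjusted p = 5.10e-06). *Psmb9*, another immunoproteasome subunit, rose by 1.49 ± 0.32. Of 16 other class I genes 12 rose and 3 fell (29.3% and 28.3% of all genes), with *Nlrc5* (2.45 ± 0.34), *H2-K1* (2.38 ± 0.17) and *Tap2* (2.35 ± 0.46) leading.

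Of the GTPases that rose at IM3h in *ME*, *Irgm1* was still higher at IM72h (0.70 ± 0.21) and others were not. *Gbp2* had 46.1, 52.5, 49.7 and 71.8 CPM, and *Igtp* had 35, 29.1, 36.2 and 44.5 CPM, both overlapping naïve. *Ifit2* was 2.27 lower on the log2 scale (SE 0.34, edgeR adjusted p = 2.08e-04), at 1.01, 0.602, 0.981 and 1.37 CPM against 4.23, 4.09 and 5.81 CPM, without overlap. *Gbp7* (-0.89 ± 0.12), *Ifih1* (-0.80 ± 0.20), *Gbp5* (-0.59 ± 0.17; 0.01 with library totals) and *Parp14* (-0.34 ± 0.13; 0.27 with library totals) were lower too.

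IM72h against IM24h, which compares *ME* libraries of 1 mouse line, gave 19 of 40 members higher and 2 lower (4 against 4 libraries; 18.6% of 16281 genes higher and 19.9% lower), with a median of 0.69 against 0.01. *Ifit1* rose most, from 5.09, 12, 8.65 and 9.53 CPM (1.98 ± 0.29, edgeR adjusted p = 4.07e-04), followed by *Isg15* (1.88 ± 0.25), *Ifi44* (1.72 ± 0.40), *Tap1* (1.67 ± 0.30), *Oas2* (1.44 ± 0.33), *Dhx58* (1.33 ± 0.28), *B2m* (1.22 ± 0.23) and *Ifit3* (1.02 ± 0.27). All 4 class I members rose. *Ifit2* (-2.83 ± 0.42) and *Ifih1* (-1.28 ± 0.20) fell, *Ifit2* from 10.8, 4.1, 5.65 and 7.23 CPM. In this comparison *Ifit2* passed the low-count filter through the IM24h libraries alone, which favours a fall. Another 4 members passed it through the IM72h libraries alone, none of them called. Of the 6 receptor genes *Ifnar1* (-1.35 ± 0.23) and *Ifnar2* (-0.75 ± 0.12) fell, whereas against naïve *Il10rb* (1.55 ± 0.20), *Ifngr1* (1.42 ± 0.15), *Ifnlr1* (1.41 ± 0.29) and *Ifngr2* (1.24 ± 0.15) were higher at IM72h and none was lower (29.3% and 28.3% of all genes). With the 3 reference genes 8 members were higher and 3 lower (1245 and 2864 of the 16281 genes). From IM24h to IM72h 5 of 7 macrophage markers rose, as did 3 of 4 fibroblast markers (782 to 1824 CPM before and 2856 to 3332 after), 3 of 5 epithelial markers (42.6 to 123 and 141 to 369.9) and 3 of 6 enteric glia markers (102 to 138 and 155 to 306), while 3 of 5 monocyte markers, 2 of 5 neutrophil markers tested and 2 of 3 markers of interstitial cells of Cajal fell. Their part in the members' changes was not tested.

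Markers of several cell types moved with the rise at IM72h. In *ME* 7 of 7 macrophage markers were called higher against naïve, with a summed level of 1142 to 1444 CPM (177 to 186 in naïve and 382 to 552 at IM24h). For monocyte markers 5 of 5 were higher (148 to 181 CPM, against 34.2 to 40.7 in naïve and 239 to 304 at IM24h), for neutrophil markers 5 of 5 tested (39.4 to 73.3 CPM, *Ly6g* at 0), for dendritic cell markers 4 of 6 (21.5 to 26.6 CPM, 9.07 to 9.81 in naïve) and for T and NK cell markers 4 of 7 tested (12.4 to 19 CPM, 5.33 to 8.22 in naïve). Enteric glia markers summed to 155 to 306 CPM (117 to 139 in naïve). Endothelial markers summed to 59.4 to 74.9 CPM (29.3 to 33.5) with 4 of 5 higher, fibroblast markers to 2856 to 3332 CPM (1538 to 1651) with 2 of 4 higher, and smooth muscle markers to 10756 to 17333 CPM (19497 to 20980.3) with 4 of 6 lower. Markers of interstitial cells of Cajal summed to 81.6 to 102 CPM (232 to 248) with 3 of 3 lower, and mesothelial markers to 30.2 to 71.4 CPM (86.7 to 126) with 3 of 4 lower. Their part in the members' rise was not tested. With library totals 32 members were higher and 1 lower against naïve (8509 and 1964 of the 16592 genes), and with the 3 reference genes 21 and 9 (2013 and 7981), and relative to all genes the members' median was 1.29 to 1.33 higher under these and TMM.

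In *RiboTag* at IM72h no member was called higher and 5 of 36 tested were lower (1.05% of 13572 genes higher and 15.1% lower), so that the share of lower members is near that of all genes. Of the 36, 25 passed the low-count filter through the naïve libraries alone, among them *Ifih1*, *Irgm1*, *Irf7* and *Oasl1*, which reached the filter's level in no IM72h library and so had to lie lower there. *B2m*, the other member called, would have passed through either group. The median was -0.76 against -0.40, and -0.67 with a member set to the limit of 3 counts where no library of the group exceeded it. Single libraries moved this gap between members and all genes, with medians of -1.76 against -0.50 without IM72h library 4, -0.42 against -0.50 without library 1 and -0.90 against -0.88 without library 2. *B2m* had 277, 402, 199 and 219 CPM, all below the naïve and IM3h libraries and overlapping IM24h (log2 change against naïve -2.20 ± 0.35, edgeR adjusted p = 0.00842), and without the low-count filter it was the 1 member called, with 16 of 22119 genes lower. The 5 became 12 without IM72h library 2, where 3613 of 13290 genes were lower, and 3 without naïve library 1 (1639 of 15030) or 3 (1245 of 14776). *Ifih1* and *Irgm1* had 0 counts in all 4 libraries, at least 4.27-fold and 5.14-fold lower than naïve against a limit of 3 counts per library. *Irf7* and *Oasl1* had at most 2 and 1 counts in a library. *Irf1* had 1.43, 45.3, 0 and 1.23 CPM, *Stat2* 0, 28.2, 0 and 0 CPM, and *Isg15* 0, 0.44, 42.2 and 21.5 CPM, each near 0 in some libraries and above 20 CPM in at least 1 other. Of the 36 log2 changes 12 were above 0, none of them called. *Iigp1*, an immunity-related GTPase, had 70.4, 31.7, 77.8 and 143 CPM, all above the naïve 31.5, 31.3 and 15.6 CPM (1.66 ± 0.82, edgeR adjusted p = 0.29). *Gbp2* was still detected in all 4 (53.2, 50.6, 10.6 and 132 CPM). Macrophage markers summed to 219 to 473 CPM in these libraries (83 to 166 in naïve) and enteric glia markers to 144 to 1461 CPM (1558 to 1881 in naïve). Neuron markers summed to 138 to 433 CPM (507 to 1024) and mesothelial markers to 0 to 53.2 CPM (84.3 to 239). Markers of interstitial cells of Cajal summed to 0.616 to 86.7 CPM (87.3 to 125) and those of B and plasma cells to 0 to 11.4 CPM (22.5 to 49.4). The part of these markers was not tested.

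The change at IM72h differed between fractions for 12 of 39 members, all lower in *RiboTag* than in *ME* (21.1% of 16527 genes called in that direction and 2.15% in the other). *B2m* had the smallest error, a difference of -3.88 ± 0.40 (edgeR adjusted p = 2.38e-04). *Bst2* (-4.78 ± 1.31) and *Psmb8* (-5.09 ± 1.28) were also called, with *RiboTag* levels of 10.5, 12.8, 0 and 1.85 CPM for *Bst2* and 12.4, 0.88, 0 and 6.77 CPM for *Psmb8*. The other 9 were *Cmpk2*, *Irf7*, *Oasl1*, *Igtp*, *Oas2*, *Ifih1*, *Mx1*, *Dhx58* and *Irgm1*, each with at most 4 counts in any *RiboTag* library at IM72h. Of these, *Mx1* and *Dhx58* failed the low-count filter within *RiboTag*. Their naïve levels there were at most 1.3 and 2.49 CPM, where 3 counts at IM72h were worth 1.32 to 2.88 CPM. The rest passed it within *RiboTag* through naïve libraries alone and so had to lie lower there. For these 9 the *RiboTag* side therefore gives no size of a change. At IM24h and IM72h such differences also hold the change of mouse line within *ME*, which cannot be told apart from the time. Over all genes the median difference was -0.98 and over the members -2.20, and it was -1.73 and -3.46 without *RiboTag* IM72h library 2 and -1.19 and -3.38 without library 4. The share of AY036118 moved with it, being higher at IM72h than in naïve *RiboTag* and lower in *ME* (2.34% to 3.69% against 16.1% to 33.5%). With this transcript left out of all libraries, the median of all genes was -0.74 and that of the members -2.16, and 12 members were called lower, as were 3252 of 16391 genes.

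**Figure D4:**
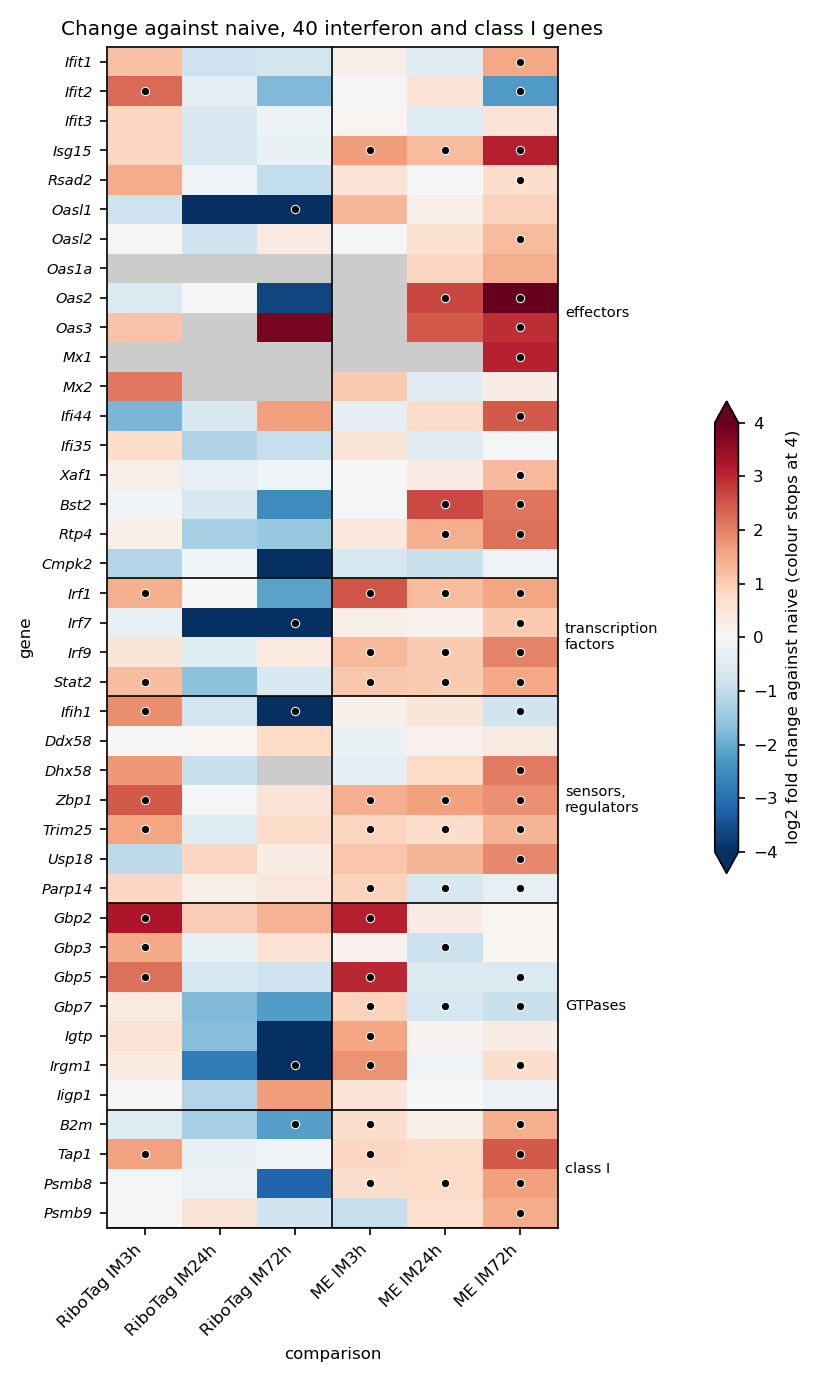
Log2 change against naïve of all 40 members (rows, by role) in the 6 comparisons (columns), from blue (lower) to red (higher), with grey for members that did not pass the low-count filter and a dot for an adjusted p under 0.05. At IM3h 1 effector has a dot for a rise in each fraction, and at IM72h in *ME* 11 effectors and all 4 class I genes have one. Dark blue *RiboTag* cells at IM24h and IM72h are fitted values of members at or near 0 counts and give no size of a change.

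**Figure D5:**
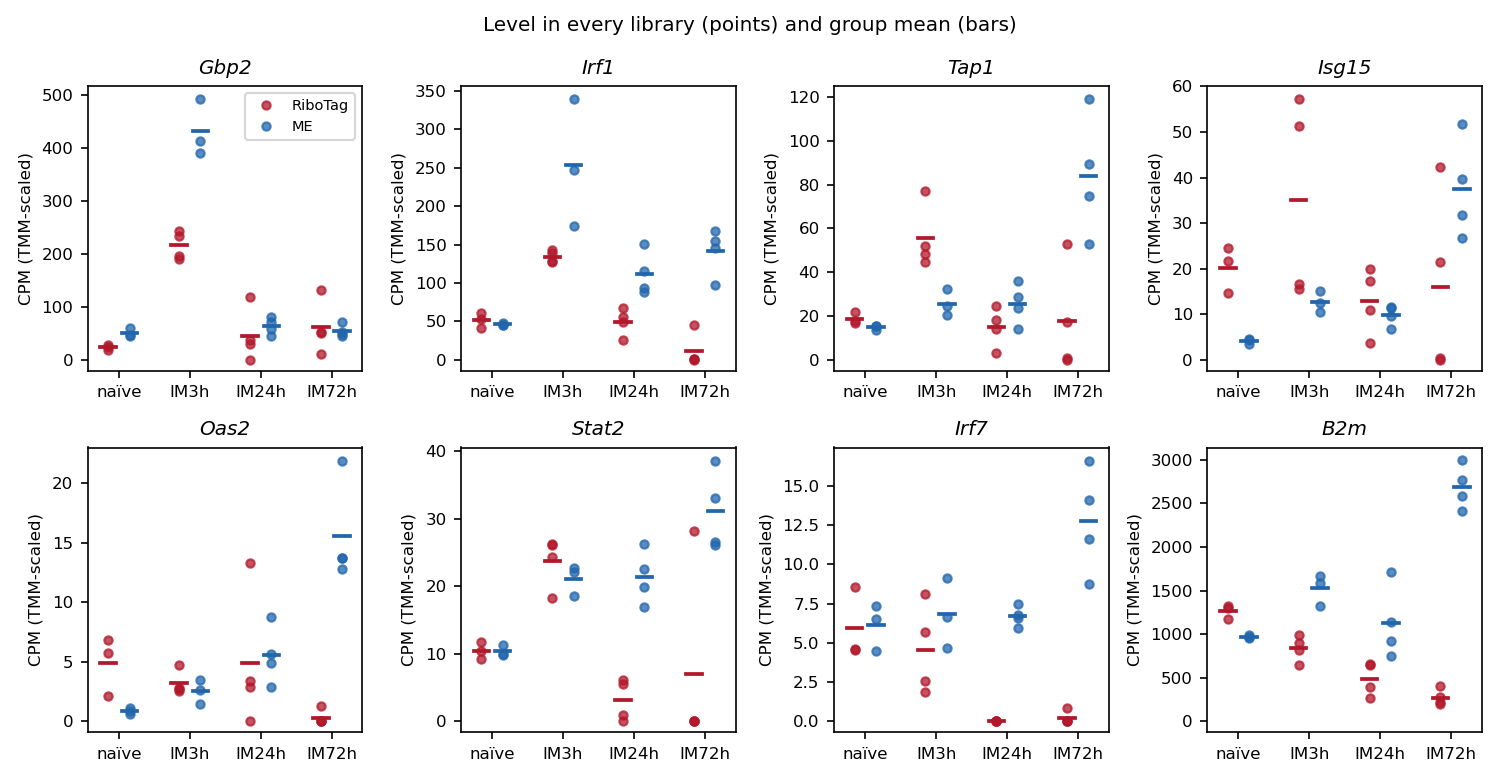
TMM-scaled CPM of 8 members in every library (points) with the group mean (bars), *RiboTag* in red and *ME* in blue, by time after IM. *Gbp2* and *Irf1* peak at IM3h in both fractions, *Isg15*, *Oas2*, *Tap1* and *B2m* are highest at IM72h in *ME*, and *B2m* is lowest at IM72h in *RiboTag* (199 to 402 CPM). The fractions were scaled apart, so that red and blue levels are not to be compared.

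All 40 members were listed in the *ME* and *RiboTag* IM3h tables and 39, without *Mx2*, in those of *RiboTag* IM24h and IM72h. *Oas1a* and *Mx1* passed the filter in no *RiboTag* comparison against naïve, *Oas3* failed it at IM24h, and *Dhx58* at IM72h. In *ME* *Oas1a*, *Oas2*, *Oas3* and *Mx1* failed it at IM3h and *Mx1* at IM24h. Against naïve, 7 members were called in no comparison. *Cmpk2*, *Ddx58*, *Ifi35*, *Ifit3* and *Iigp1* were tested in all 6, *Mx2* in 4 and *Oas1a* in 2. The log2 changes of *Iigp1* in *ME* were 0.53, -0.02 and -0.23 at IM3h, IM24h and IM72h, and those of *Ifi35* 0.48, -0.46 and -0.07. *Irf1*, *Stat2*, *Gbp2*, *Gbp3* and *Gbp5* are also in the study's acute enteric gliosis list, which the study assembled from published genes and from genes induced in these samples, so their rise at IM3h is not independent evidence.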

How the data were processed

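RNA of the small bowel *ME* was measured as total RNA and as *RiboTag* mRNA by QuantSeq 3′ sequencing in 29 libraries. The study's methods and processing notes name cutadapt, STAR and Partek Flow with the Ensembl 99 annotation of mm10. The deposited values are estimated counts per gene or transcript, not normalized by the authors, which need not be whole. Transcripts were summed by gene symbol and counts were rounded. The labels list 4 naïve *RiboTag* samples and the tables hold 3.

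Genes passing filterByExpr were fitted in edgeR 4.0.16 (R 4.3.3) with TMM scaling, the quasi-likelihood test and Benjamini-Hochberg adjustment over all genes tested, for 12 comparisons, each on its own groups. A call is an adjusted p under 0.05. Differences between fractions are interaction terms. SE is the log2 change over the root of the F statistic. The scripts were tested on simulated data. Exact permutation tests of single values could not go below p = 0.1 with 3 against 3 libraries, 0.0571 with 3 against 4 and 0.0286 with 4 against 4. Counting error alone is covered by the limit of 3 counts per library used where a group was at 0.

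Members and lists were chosen with earlier results of these data known. Every member may be named. Other pathway genes are named if called and among the 3 largest changes of their list, or if a receptor or *Nlrc5*, and 1 such gene is not reported here. Alternatives were DESeq2 1.42.0, library totals, 3 reference genes (*Actb*, *Hsp90ab1*, *Rplp1*), no filter, AY036118 left out, all groups in one fit, the *ME* transcript table, the study's threshold and each library left out. Leaving out *RiboTag* IM24h libraries 2 and 3 together was chosen after seeing the data.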

Additional observations from a re-analysis of the deposited data

Results flagged for a closer look

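The change after IM differed between *RiboTag* and *ME* by the interaction test (edgeR quasi-likelihood, Benjamini-Hochberg adjustment over all genes) for 16 member results. The mouse lines of the *ME* groups cannot be told apart from the fraction at IM3h or from the time at IM24h and IM72h. At IM3h the adjusted p was 0.0369 for *Gbp3*, which rose in *RiboTag*, and 0.0357 for *B2m*, which rose in *ME*. Of all genes 0.959% were called in the direction of *Gbp3* and 0.698% in that of *B2m*. At IM24h it was 0.0134 for *Bst2* and 0.0386 for *Irf7*, both with the lower change in *RiboTag* (0.263% of all genes). *Irf7* had 0 counts in every *RiboTag* library at IM24h. At IM72h all 12 had the lower change in *RiboTag*, where 21.1% of all genes were called in that direction and 2.15% in the other. All of them but *B2m*, *Bst2* and *Psmb8* were at or near 0 counts in *RiboTag* there. The edgeR adjusted p was 0.000238 for *B2m*, 0.000617 for *Irgm1*, 0.00117 for *Ifih1*, 0.00141 for *Oas2*, 0.00198 for *Igtp* and 0.00472 for *Cmpk2*. It was 0.00482 for *Irf7*, 0.00498 for *Dhx58*, 0.00688 for *Oasl1*, 0.00962 for *Psmb8*, 0.016 for *Bst2* and 0.0376 for *Mx1*.

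Single libraries stood apart from the others of their group in 10 of 69 groups of 4 libraries examined for 14 members, by Dixon's test. *RiboTag* IM72h library 2 gave 6 of them, all as the highest library, with 45.3 CPM for *Irf1*, 28.2 for *Stat2*, 18.5 for *Usp18*, 1.76 for *Igtp*, 1.32 for *Oas2* and 0.88 for *Irf7*. For the last 5 the other 3 libraries were at 0, which gives the largest possible ratio whatever the level, so these 5 say nothing beyond the zeros. Chance gives about 1 in 20 only where values are not tied in this way, and the 10 are not set against it. *RiboTag* IM72h library 3 had 131 CPM of *Ifit3*. *RiboTag* IM24h library 3 had 0 CPM of *Ifit1*, and *RiboTag* IM3h library 4 had 4.77 CPM of *Oas2*. *ME* IM72h library 1 had 21.9 CPM of *Oas2*.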

How the results depend on the processing

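No paired analysis was possible because the names of the libraries in the count tables match no sample label, so that the replicate numbers in the labels could not be given to libraries. Of 1719 values of called members under an alternative, 1498 kept direction and call, 218 kept direction and lost the call, and 3 reversed, all with library totals, namely *Parp14* in *ME* at IM24h (0.02) and IM72h (0.27) and *Gbp5* in *ME* at IM72h (0.01). Of 379 counts of called members 290 stayed within 1.5 times the reported count. The cause of the other moves was not tested.

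Counts over all genes are given in brackets. With library totals, 1 member was lower in *RiboTag* at IM3h (931 of 16053 genes) and 9 at IM72h (2828 of 13572). In *ME* 2 were lower at IM3h (3391 of 15333), 22 were higher and 0 lower at IM24h (6281 and 720 of 16328), and 1 was lower at IM72h (1964 of 16592). The change was lower in *RiboTag* than in *ME* for 6 at IM24h (440 of 17508) and 21 at IM72h (6969 of 16527). In naïve *RiboTag* 24 were higher and 0 lower (5182 and 458 of 14769). With the 3 reference genes, 1 member was higher in *RiboTag* at IM3h (242 of 16053) and 10 lower at IM72h (3010 of 13572). In *ME* 3 were lower at IM3h (5364 of 15333), 3 higher at IM24h (756 of 16328) and 9 lower at IM72h (7981 of 16592). In *ME* 8 were higher at IM72h than at IM24h (1245 of 16281). Between fractions 0 differed at IM3h in either direction (20 and 19 of 17617), and 0 were lower in naïve *RiboTag* (872 of 14769). In the fit of all groups, 0 members were higher in *RiboTag* at IM3h (22 of 17930), 3 were lower there at IM72h (1098 of 17930) and 5 were lower in *ME* at IM24h (3211 of 17919). Without a filter 1 was lower in *RiboTag* at IM72h (16 of 22119). DESeq2 called 3 lower in *RiboTag* at IM24h (366 of 15304) and 8 lower at IM24h than at IM3h (516 of 14169). It called 3 with a higher and 2 with a lower change in *RiboTag* than in *ME* at IM3h (398 and 396 of 17617), and 1 with a higher change at IM72h (940 of 16527). Without *RiboTag* IM24h libraries 2 and 3, a setting chosen after seeing the data, 3 were lower at IM24h than at IM3h (184 of 16671). At the study's threshold 1, 4 and 9 were lower in *RiboTag* at IM3h, IM24h and IM72h (8.86%, 5.85% and 19.4% of all genes). In *ME* 0 and 1 were lower at IM24h and IM72h (11.3% and 15.6%), and 9 were higher at IM72h than at IM24h (12.7%). In *RiboTag* 16 were lower at IM24h than at IM3h (7.09%). Between fractions 4 had a higher and 3 a lower change in *RiboTag* at IM3h (5.99% and 5.18%), and 11 a lower one at IM24h (7.22%). In naïve *RiboTag* 0 were lower (11.5%).

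Leaving out 1 library gave 8 to 12 higher in *RiboTag* at IM3h, 0 to 1 lower at IM24h and 3 to 12 lower at IM72h. In *ME* it gave 0 to 1 lower at IM3h, 5 to 11 higher and 1 to 4 lower at IM24h, 22 to 25 higher and 4 to 5 lower at IM72h, and 13 to 19 higher and 2 to 3 lower at IM72h than at IM24h. It gave 0 to 2 lower in *RiboTag* at IM24h than at IM3h. Between fractions it gave 0 to 2 higher and 0 to 1 lower at IM3h, 0 to 5 lower at IM24h, and 0 to 1 higher and 10 to 17 lower at IM72h. In naïve *RiboTag* it gave 6 to 11 higher and 0 to 2 lower. In *RiboTag* at IM72h 3 counts, the limit that depth sets, were worth 1.32 to 2.88 CPM. There 8 to 25 members were at 0 in a library, with the unlisted *Mx2* taken as 0, and the cause was not tested.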
